A study of Mus musculus with 12 samples.

Results

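The 38 genes described here encode secreted and membrane-bound metalloproteinases and their inhibitors. They are 15 matrix metalloproteinases (MMPs), 11 ADAMs, 8 ADAMTS proteases and the 4 tissue inhibitors of metalloproteinases (TIMPs). They were taken as a family list by the gene name that the array files give, out of 25145 named genes with a probe. Messenger RNA was measured on 12 single-colour Agilent arrays of macrophages sorted from normal pancreas (6 arrays) or from pancreatic tumor tissue (6 arrays) of female C57/B6 mice aged 4 to 5 months. Genotype is given as not provided for every sample. The treatment protocol says that tumors were implanted, whereas the design text lists wild-type animals, KPC mice (which develop pancreatic adenocarcinoma from engineered alleles) and a FLT3-CRE/LSL-YFP reporter strain. Which of these gave each sample is not stated, so the groups are normal and tumor tissue as labelled, not a defined genotype. Titles repeat 1 sample name within each group, on 2 arrays, and such arrays were averaged, which left 5 samples per group. Whether each name is an animal of its own is not stated, and p-values therefore reflect only how these samples spread, some of which may be technical.

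MMPs and their relatives are zinc-dependent enzymes. MMPs cut collagens, elastin and other matrix proteins, ADAMs are mostly sheddases that release the outer part of membrane proteins such as cytokines and receptors, and ADAMTS enzymes process procollagens and proteoglycans. They are made as inactive proenzymes, and TIMPs bind the active site of the mature enzymes. Macrophages are a known source of MMP9, MMP12 and ADAM8, whereas neutrophils store MMP8, MMP9 and MMP25 in their granules.

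Of the 38 genes, 17 were well above background on all 12 arrays and 4 on none. The test took genes whose brightest probe stood well above background on 3 or more arrays of 1 group, and 30 of the 38 met this. Counts of arrays above background, here and below, take arrays that share a sample name separately. Levels below are log2 processed signals relative to the 75th percentile of the array, so 0 is the level of that percentile, and differences are tumor minus normal on the same scale. Of 15052 genes tested, 132 (0.877%) passed an adjusted p under 0.05 in limma, and of the 30 family genes 1 did (3.33%), Mmp25, which was higher in tumor. The direction was even among the 30, with 14 differences above 0 (46.7%, against 49.8% of all genes) and a median of -0.028, against -0.0024 over all genes tested. In 5 of the 30 (16.7%) the tumor and normal samples did not overlap, namely Mmp25, Mmp12 and Adam8, which were higher in every tumor sample, and Adam12 and Adam33, which were lower in every one. The same held for 3.45% of all genes tested, 1.8% with every tumor sample higher and 1.65% with every one lower. At an unadjusted p under 0.05 the count was 11 of 30 (36.7%), against 13.1% of all genes. Of these, 7 were higher in tumor and 4 lower, against 6.63% and 6.42% of all genes. The family genes were chosen with earlier results of these data known. Shares above those of all genes therefore cannot be read as a trait of the family. Of 22 tested relatives outside the family list, 1 had groups that did not overlap. The family genes differed by a median of 0.67 in either direction, against 0.35 over all genes, and their standard errors were wider too, with medians of 0.50 and 0.36. RNA came from bulk sorts, in which fewer cells of a type and less RNA per cell cannot be told apart.

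The sample of normal replicates 2 and 3 stood apart in markers of cells other than macrophages. Its summed linear level, relative to the 75th percentile of the array, was 143 for fibroblast and stellate markers (next highest normal sample 79.9), 27.2 for endothelium (15.3), 447 for islet (80.9), 228 for ductal epithelium (96.3) and 5298 for acinar markers (2853). It was also the highest normal sample for Mmp2, Mmp7, Mmp11, Mmp14, Adamts1, Adamts4, Adamts5, Timp1, Timp2 and Timp3 among the tested family genes. Its arrays also had the lowest 75th percentiles, 398 and 430, against 863 or more on the others. They had the fewest probes well above background, 39.3% and 39.6%, against 48.9% or more. The part of the other cells, or of the lower signal, in these levels was not tested. Without this sample limma passed 119 genes and 2 of the family, Mmp25 (2.85, adjusted p = 0.0277) and Adam33 (-2.01, 0.0227). The differences were then 2.24 for Mmp12, 1.19 for Adam8, -2.28 for Mmp9 and -0.99 for Adam12.

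**Figure D1:**
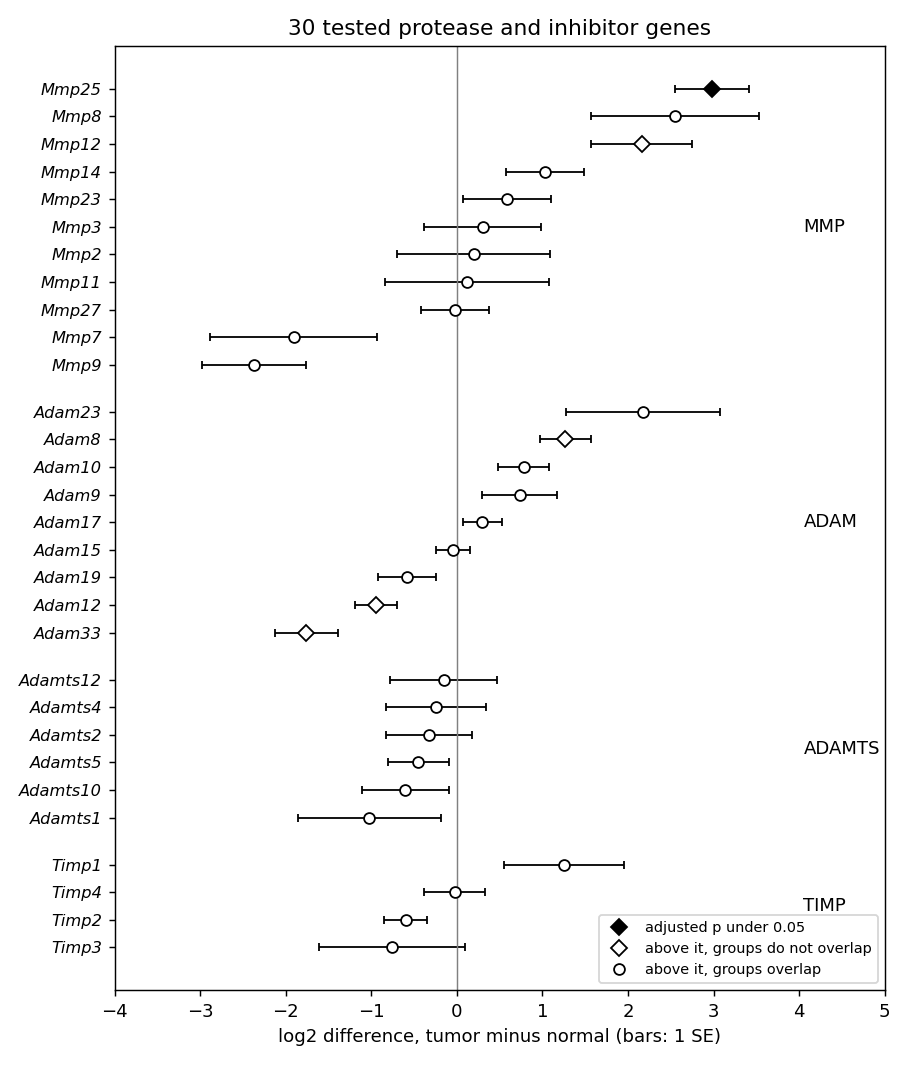
Log2 difference, tumor minus normal, of the 30 tested genes by family on the horizontal axis, with bars of 1 standard error. The filled diamond is Mmp25, the gene with an adjusted p under 0.05, and open diamonds are genes whose groups of samples did not overlap. The 6 ADAMTS genes shown, those of the family list, lie left of 0, between -1.02 and -0.16.

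Among the MMPs, Mmp25 rose in tumor macrophages, Mmp12 was higher in every tumor sample without passing the threshold, and Mmp9 was lower on average. Mmp25 encodes a membrane-anchored MMP of leukocytes. Its level in the normal samples, in replicate order with replicates 2 and 3 averaged, was -4.08, -3.66, -3.12, -2.84 and -1.99, and in the tumor samples, with replicates 4 and 6 averaged and placed by the first, it was 0.55, -0.040, -1.24, 0.17 and -0.22. The lowest tumor sample lay above the highest normal sample. The mean was -3.14 ± 0.80 in normal and -0.16 ± 0.67 in tumor (SD, n = 5 each), a rise of 2.98 ± 0.44 (SE) or 7.90-fold (limma adjusted p = 0.00971, 95% interval 2.02 to 3.94). The probe lies on chromosome 17 at 23767090 to 23767149 (mm9). It was well above background on all 6 tumor arrays but on 1 of 6 normal arrays, replicate 6, so the normal level is near the limit of measurement and the size of the rise is uncertain. After normexp background correction Mmp25 differed by 1.12 (limma adjusted p = 0.0322). The Mmp25 difference was 4.11, 2.84 and 2.41 on slides 1, 2 and 3 taken alone, each with 2 arrays of either group. Mmp25 also passed in the model that blocks on slide and name (limma adjusted p = 0.00893).

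Mmp12, macrophage elastase, had levels of 2.81, 2.75, 2.96, 1.43 and 2.20 in the normal samples and of 5.99, 5.89, 3.50, 3.08 and 4.49 in the tumor samples. All tumor samples were above all normal ones, but the tumor samples spread over nearly 3 log2 units and the lowest of them was close to the highest normal sample. The difference was 2.16 ± 0.59 (SE), or 4.47-fold (limma adjusted p = 0.143). The probe of Mmp12 (chromosome 9, 7352935 to 7352994, mm9) was well above background on all 12 arrays. The log2 difference of Mmp12 was 3.13, 0.51 and 1.92 within slides 1, 2 and 3. A second probe was not well above background on any array. The call depended on the background correction, with an adjusted p of 0.0260 after normexp in limma, where the log2 difference of Mmp12 was 2.27.

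Mmp9, gelatinase B, ran from -1.08 to 1.42 in normal samples with a median of 0.56, and from -3.98 to -0.75 in tumor samples with a median of -1.83. The groups overlapped through tumor replicate 3, the highest tumor sample, and normal replicate 4, the lowest normal one. The difference was -2.37 ± 0.61 (SE), or 5.18-fold lower in tumor (limma adjusted p = 0.119), and it was -2.17, -1.13 and -3.88 within slides 1, 2 and 3. After normexp correction the log2 difference of Mmp9 was -1.57 and passed (limma adjusted p = 0.0337). The Mmp9 probe is placed at 164780620 to 164780679 of chromosome 2 (mm9). Mmp8, neutrophil collagenase, differed in the other direction by 2.55 ± 0.98 (limma adjusted p = 0.303). It was well above background on 1 of 6 normal and 4 of 6 tumor arrays, and ranged from -5.68 to 0.68 in tumor, where the sample of replicates 4 and 6 was the lowest and not well above background on either array. Without that sample the log2 difference of Mmp8 was 3.47 and passed (limma adjusted p = 0.0465), and after normexp correction it was 0.74.

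Mmp14, a membrane-type MMP that activates proMMP2, lay between -0.23 and 1.57 in normal and between 0.49 and 2.58 in tumor samples and differed by 1.03 ± 0.46 (limma adjusted p = 0.368). The groups of Mmp14 overlapped, and its difference was 0.82, -0.30 and 1.52 within slides 1, 2 and 3. Mmp2, gelatinase A and the substrate of that activation, differed by 0.20 ± 0.90, on 3 of 6 arrays above background in either group. Mmp7, matrilysin, stood above background on 3 of 6 normal arrays (replicates 1, 2 and 3, the last 2 of 1 sample) and 0 of 6 tumor arrays. Its bound, at least 1.02-fold lower in tumor, leaves the difference unresolved (limma adjusted p = 0.445), and the log2 difference of Mmp7 was -1.91, or -1.03 without normal replicates 2 and 3. Such a bound divides the brighter group's mean by a floor for the dimmer group, which on every array is the dimmest signal still called well above background, or the gene's own signal if that is higher. Mmp3 (stromelysin), Mmp11, Mmp23 and Mmp27 differed by 0.30, 0.12, 0.59 and -0.028, with standard errors of 0.68, 0.96, 0.51 and 0.40. Mmp10, Mmp15 and Mmp19 were not above background on any array, and Mmp13, collagenase 3, was above it on 1 of 6 arrays in either group, so these 4 were not tested and have no direction here.

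The MMP gene cluster of mouse chromosome 9 holds 7 of the 38 genes, and the probes of Mmp13, Mmp12, Mmp3, Mmp10, Mmp8, Mmp27 and Mmp7 lie in this order within 414.9 kb (mm9). Mmp12 was above background on all 12 arrays and Mmp10 on none. The 5 tested genes among these differed, in the order of the chromosome, by 2.16 for Mmp12, 0.30 for Mmp3, 2.55 for Mmp8, -0.028 for Mmp27 and -1.91 for Mmp7, and none passed the threshold in limma.

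**Figure D2:**
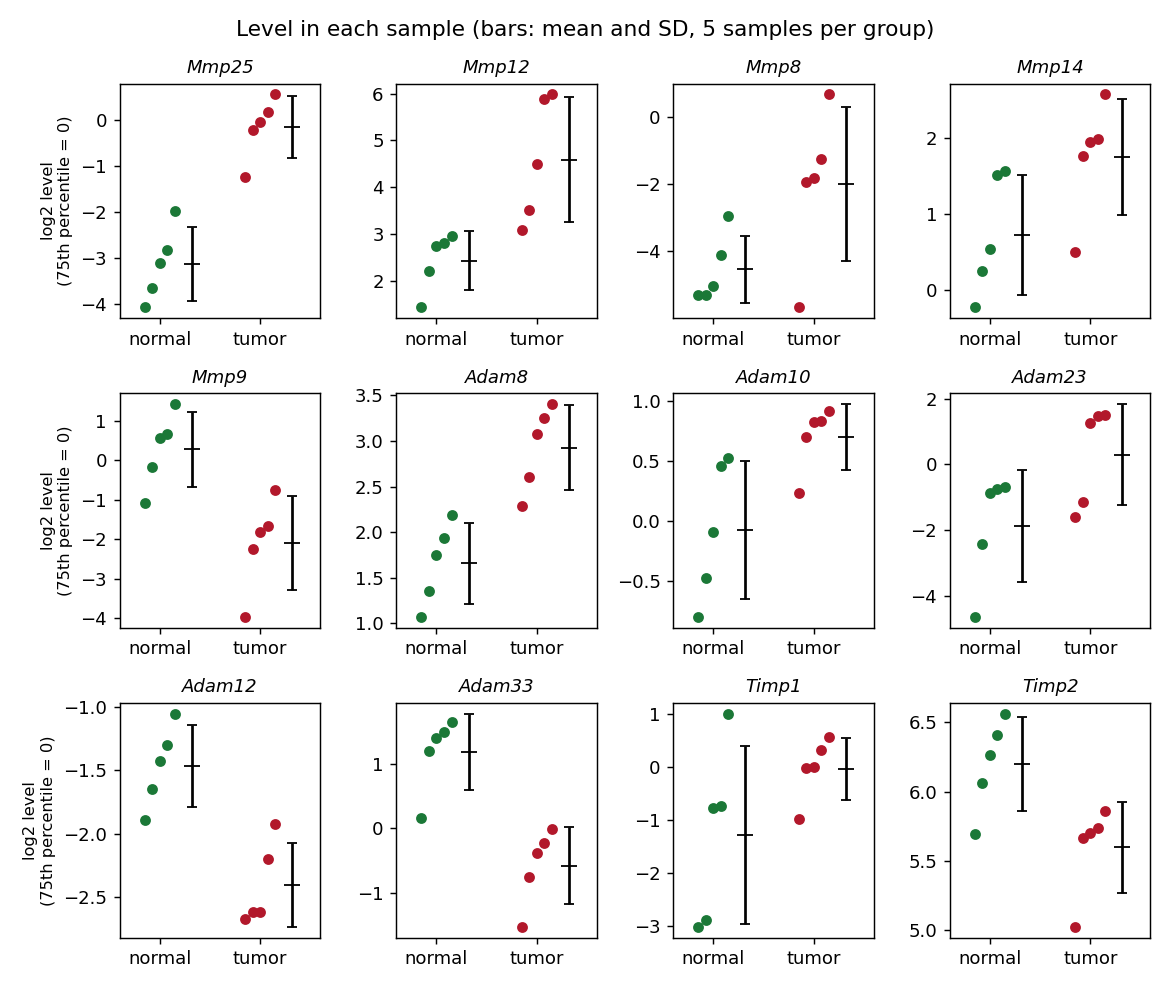
Level in each of 5 normal (green) and 5 tumor (red) samples for the 11 genes with an unadjusted p under 0.05 and for Timp1, as log2 signal relative to the 75th percentile of the array, with points ordered by value within a group, bars for the mean and SD, and an axis of its own for each panel. Mmp25, Mmp12, Adam8, Adam12 and Adam33 show no overlap between the groups.

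Of the 9 tested ADAM genes 5 differences were above 0 and 4 below. None passed in limma over all genes, 5 had an unadjusted p under 0.05, and 3 had groups that did not overlap. Adam8, a sheddase of myeloid cells, had levels of 2.18, 1.36, 1.75, 1.07 and 1.93 in the normal samples and of 3.40, 3.25, 2.29, 2.61 and 3.08 in the tumor samples. Every tumor sample was above every normal one, with tumor replicate 3 only just above normal replicate 1. The difference was 1.27 ± 0.30 (SE), or 2.41-fold (limma adjusted p = 0.0909), on a probe of chromosome 7 at 147164873 to 147164932 (mm9) that was well above background on all 12 arrays. It was 1.63, 0.80 and 1.36 within slides 1, 2 and 3. After normexp correction the log2 difference of Adam8 was 1.35 and passed (limma adjusted p = 0.0228).

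Adam33, which in other tissues is known from mesenchymal cells, was lower in every tumor sample. Its levels were 1.40, 0.16, 1.19, 1.48 and 1.65 in the normal samples and -0.38, -1.53, -0.012, -0.24 and -0.76 in the tumor samples. The difference was -1.76 ± 0.36 (SE), or 3.39-fold lower, just short of the threshold (limma adjusted p = 0.0544). Blocked on slide and name it was -1.73 and passed (0.0449 by limma), and without the lowest normal sample, that of replicates 2 and 3, it was -2.01 and passed (0.0227). The values within slides 1, 2 and 3 were -1.68, -0.86 and -2.06. The 2 other probes of Adam33 gave -2.47 ± 0.73 and -3.18 ± 0.79 (SE), so all 3 probes lay below 0. The probe used is annotated on chromosome 2 from 130877240 to 130878566 (mm9), a stretch longer than its 60 bases.

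Adam12, meltrin alpha, had levels of -1.06, -1.65, -1.43, -1.89 and -1.30 in the normal samples and of -2.62, -2.68, -2.62, -1.93 and -2.20 in the tumor samples. The groups did not overlap, but the lowest normal sample (replicate 5) and the highest tumor sample (replicates 4 and 6) nearly met. The difference was -0.94 ± 0.25 (SE), or 1.92-fold lower (limma adjusted p = 0.127), and it was -1.37, -0.73 and -0.39 within slides 1, 2 and 3. Another probe of Adam12 that passed the filter gave 0.0041 ± 1.05 (SE), an error too wide to tell whether the probes differ.

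The main sheddases of cytokines and their receptors did not pass the threshold. Adam17, which releases tumor necrosis factor, had a difference of 0.30 ± 0.23 (limma adjusted p = 0.615, 95% interval -0.20 to 0.80), and its other probe gave 0.40. Adam10, which cuts Notch and chemokines among others, had a difference of 0.78 ± 0.30 (limma adjusted p = 0.303), with levels between -0.80 and 0.53 in normal and between 0.24 and 0.92 in tumor samples. Adam10 was above 0 within each slide (0.98, 0.88 and 0.60). Adam15 had a difference of -0.047 ± 0.20, and its interval of -0.49 to 0.39 is the narrowest of the family. Adam9 differed by 0.74 ± 0.44 and Adam19 by -0.59 ± 0.34, without passing. Adam23, a family member that lacks the catalytic site and acts in adhesion, differed by 2.17 ± 0.90 (limma adjusted p = 0.336). Its tumor samples were at 1.48, -1.13, -1.62, 1.25 and 1.497 and its normal samples between -4.65 and -0.68, so 2 tumor samples lay within the normal range, and 2 other probes that passed the filter gave 1.49 and 2.05. Adam22, which also lacks the catalytic site, and Adam28 were too dim to be tested.

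All 6 tested ADAMTS genes of the family list had differences below 0, from -1.02 to -0.16 with a median of -0.39. None of them passed in limma over all genes, 0 had an unadjusted p under 0.05, and every group overlapped. The direction was not shared by all ADAMTS proteases tested. Outside the family list, Adamts3 was above 0, at 0.65 ± 0.34 (SE). The others tested there were below 0, with Adamts8 at -0.22, Adamts13 at -0.58, Adamts14 at -0.57 and Adamts17 at -0.53. Adamts1, which cuts versican and other proteoglycans, differed by -1.02 ± 0.84, Adamts4 and Adamts5, the aggrecanases, by -0.24 ± 0.58 and -0.45 ± 0.36, and Adamts2, a procollagen N-proteinase, by -0.33 ± 0.50. Adamts10, which binds fibrillin, differed by -0.60 ± 0.51 and Adamts12 by -0.16 ± 0.63. Other probes that passed the filter gave -1.37 ± 0.73 for Adamts2, -0.79 ± 1.06 for Adamts4 and -0.29 ± 0.55 for Adamts10. Without the sample of normal replicates 2 and 3, Adamts4 and Adamts12 were above 0, at 0.18 and 0.13, and Adamts1 was at -0.34, Adamts5 at -0.16, Adamts2 at -0.21 and Adamts10 at -0.40. Adamts12 was also above 0 without normal replicate 4 (0.23), tumor replicate 1 (0.064) or 2 (0.0015), and Adamts4 without tumor replicate 1. On slide 3 alone the differences of Adamts2, Adamts4 and Adamts12 were above 0 (0.10, 0.83 and 1.06). Adamts9 and Adamts15 were not tested, the first on 2 of 6 arrays above background in either group and the second on none. Those 2 arrays of Adamts9 came from 1 sample in each group.

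None of the 4 inhibitors passed in limma, and 1 of them, Timp2, had an unadjusted p under 0.05. Timp2, which besides inhibiting MMPs takes part in the activation of proMMP2 by MMP14, lay between 5.69 and 6.56 in normal and between 5.03 and 5.86 in tumor samples. Its difference was -0.60 ± 0.25 (limma adjusted p = 0.338), its other probe gave -0.63, and the values within slides 1, 2 and 3 were alike, at -0.74, -0.56 and -0.60. Timp1, the inducible inhibitor, differed by 1.25 ± 0.71 (limma adjusted p = 0.487), with normal samples spread from -3.03 to 0.99 and tumor samples from -0.99 to 0.55. Timp1 was near 0 within slides 1 and 2 (-0.023 and -0.21) and at 2.38 within slide 3. Timp3, which binds to the matrix, differed by -0.76 ± 0.86 and Timp4 by -0.028 ± 0.36. Timp3 was at -0.20 without the sample of normal replicates 2 and 3 and at -0.17 without tumor replicate 1.

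**Figure D3:**
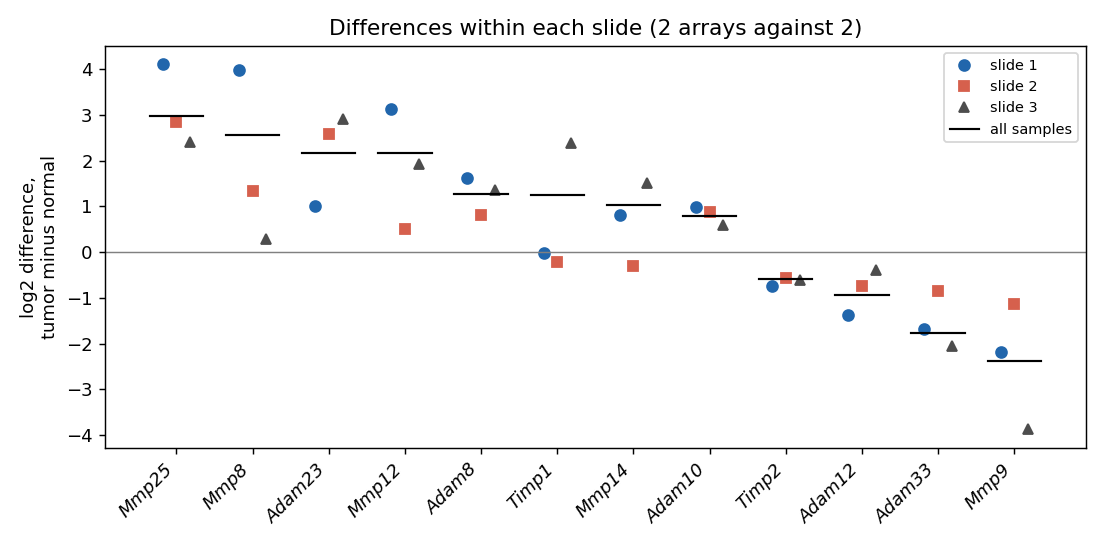
Log2 difference, tumor minus normal, within each of 3 slides (2 arrays of either group each, symbols) and over all samples (black lines) for the genes of the plot by sample. Mmp25, Mmp12, Mmp8, Adam8, Adam10 and Adam23 lie above 0 on all 3 slides and Mmp9, Adam33, Adam12 and Timp2 below 0. Timp1 and Mmp14 change sign between slides.

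The slides gave the same direction for 17 of the 30 tested genes. The share over all genes tested was not computed, so this count cannot be set against it. The slides are not independent of each other. Slides 1 and 2 share the sample of normal replicates 2 and 3, and slides 2 and 3 that of tumor replicates 4 and 6. Within single slides limma passed 0 genes of the whole array, with 1457, 1462 and 866 genes at an unadjusted p under 0.05 on slides 1, 2 and 3.

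The promoters of the 3 genes that were higher in every tumor sample are shown beside that of Mmp3 from the chromosome 9 cluster, because MMP genes are textbook targets of the transcription factor AP-1. The windows are the 250 bases before the start of transcription (RefSeq, GRCm38.p6), 5′ to 3′ on the strand of the gene. Capitals mark the AP-1 motif TGANTCA, which reads the same on both strands, and the TATA motif TATAAA on the gene strand, which do not overlap each other. For Mmp12 RefSeq gives 2 starts.
Mmp25, chr17:23645270-23645519, minus strand: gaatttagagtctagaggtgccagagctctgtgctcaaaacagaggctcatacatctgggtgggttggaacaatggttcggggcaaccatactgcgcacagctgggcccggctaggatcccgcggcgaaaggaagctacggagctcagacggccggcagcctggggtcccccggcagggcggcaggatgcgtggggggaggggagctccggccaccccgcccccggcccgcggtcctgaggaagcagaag
Adam8, chr7:139992563-139992812, minus strand: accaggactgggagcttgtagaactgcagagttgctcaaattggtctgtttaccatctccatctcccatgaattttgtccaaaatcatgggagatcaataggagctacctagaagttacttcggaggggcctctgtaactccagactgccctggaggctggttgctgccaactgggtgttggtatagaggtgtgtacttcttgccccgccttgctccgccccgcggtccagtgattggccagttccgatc
Mmp12, first start, chr9:7344147-7344396, plus strand: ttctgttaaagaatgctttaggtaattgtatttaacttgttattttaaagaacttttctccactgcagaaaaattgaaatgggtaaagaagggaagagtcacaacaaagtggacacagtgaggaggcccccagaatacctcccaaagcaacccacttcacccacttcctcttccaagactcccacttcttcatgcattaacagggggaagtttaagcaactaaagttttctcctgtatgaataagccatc
Mmp12, second start, chr9:7347124-7347373, plus strand: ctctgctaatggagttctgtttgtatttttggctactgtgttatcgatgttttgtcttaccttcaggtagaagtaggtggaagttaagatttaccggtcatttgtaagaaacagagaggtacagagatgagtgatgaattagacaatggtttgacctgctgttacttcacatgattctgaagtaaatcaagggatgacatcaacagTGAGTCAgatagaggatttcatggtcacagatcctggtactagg
Mmp3, chr9:7445572-7445821, plus strand: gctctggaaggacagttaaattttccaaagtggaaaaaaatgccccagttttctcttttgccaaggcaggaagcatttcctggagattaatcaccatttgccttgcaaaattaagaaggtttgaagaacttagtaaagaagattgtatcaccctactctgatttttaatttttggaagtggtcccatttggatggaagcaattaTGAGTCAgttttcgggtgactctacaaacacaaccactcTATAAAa

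Neither motif was found in the windows of Mmp25, Adam8 and the first start of Mmp12, and the second start of Mmp12 had 1 AP-1 match, TGAGTCA, whose first base lies 44 bases before the start. RefSeq windows were found for 27 of the 38 genes. An AP-1 match stood in 6 of their 32 windows (Mmp3, Mmp7, Mmp10, Mmp12, Mmp13 and Adam19), against 6.75% of 32851 windows of all genes, and a TATA match in 5 (Mmp3, Mmp7, Mmp10, Mmp13 and Adamts1), against 7.59%. Of the 4 genes with both motifs, Mmp10 and Mmp13 were too dim to be tested, Mmp3 was above background on 5 of 12 arrays and Mmp7 on 3. A match is a description of the sequence, not of binding.

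Other genes of the same pathways were described by lists. Of 41 further metzincin relatives 22 were tested and 0 passed in limma, with a median difference of -0.26. Those with the smallest p were Adamtsl4, an ADAMTS-like matrix protein, at 1.65 ± 0.46 (SE) and Adam32 at -1.22 ± 0.59. Of 22 genes that activate, inhibit or clear metalloproteinases 17 were tested and 0 passed (median -0.17). Plaur, the urokinase receptor, differed by 1.19 ± 0.35, and Furin, the convertase that activates MMP14 and many ADAMs, by 0.61 ± 0.25. Of 9 partners of ADAM10 and ADAM17, 8 were tested and 0 passed (median 0.19). The iRhom genes Rhbdf1 and Rhbdf2, which carry ADAM17 to the cell surface, had differences of opposite sign, -1.49 ± 0.34 (limma adjusted p = 0.0787) and 0.77 ± 0.32 (0.335), and neither passed.

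Among 30 substrates of sheddases, 24 were tested, with 14 differences above 0, 10 below and a median of 0.22. Of 22 matrix substrates 21 were tested and 0 passed (median -0.34). Fn1, fibronectin, differed by 0.89 ± 0.21 (limma adjusted p = 0.0876), with groups that did not overlap, and Thbs1, thrombospondin, by 2.68 ± 0.77 (0.161).

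Markers of macrophages were present, all 13 of them well above background on all 12 arrays, with differences from -0.80 to 0.58 and 0 calls in limma. Markers of other cells moved with the groups. Of 15 neutrophil markers 12 were tested, 10 of them above 0 with a median of 0.97, and 1 rose, Retnlg, by 4.34 (limma adjusted p = 0.0307). The summed linear level of the neutrophil list lay between 20.7 and 28.4 in normal and between 26.6 and 39.1 in tumor samples, and it was led by Csf3r and Lcn2, with differences of 0.0058 and 0.59. By gene of this list, arrays above background in normal and tumor, of 6 each, were 0 and 5 for S100a8 and 3 and 5 for S100a9. They were 2 and 6 for Retnlg and Stfa2, 3 and 6 for Cxcr2, and 6 and 6 for Csf3r and Lcn2. Ltf had 1 and 4, Camp 2 and 4, Prtn3 0 and 3, and Ngp 2 and 3. Mpo had 3 and 2, Ly6g 2 and 1, and Elane and Mrgpra2b had 0 and 0. Neutrophil and monocyte signal thus moved in the same direction as Mmp25, Mmp8, Mmp12 and Adam8. Mmp9, which neutrophils also store, moved the other way, by -2.37. The part of neutrophils and monocytes in those differences was not tested.

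Of 11 monocyte markers 10 were tested, 8 of them above 0 with a median of 1.29, and those that rose included F10 (coagulation factor X, by 2.69, limma adjusted p = 0.00357) and Hp (haptoglobin, by 3.20, 0.00687). Their sum lay between 32.5 and 81.7 in normal and between 70.2 and 126 in tumor samples, led by Fn1 and Ly6c1 with differences of 0.89 and -0.38. All 14 acinar markers measured were below 0 with a median of -6.75, and 12 fell. Their sum lay between 469 and 5298 in normal and between 6.66 and 223 in tumor samples, led by Ctrb1 and Prss1 at -3.81 and -5.55. Acinar signal thus moved between the groups in the same direction as Mmp9, Adam33, Adam12 and Timp2. These are the family genes lower in tumor at an unadjusted p under 0.05 in limma. Among normal samples, that of replicates 2 and 3 had the highest acinar sum (5298) and replicate 6 the lowest (469). In these samples, in that order, Adam33 was at 0.16 and 1.65 and Adam12 at -1.65 and -1.30. Mmp9 was at 0.67 and 0.56 there, and Timp2 at 6.56 and 5.69. These are values of individual samples only. The part of acinar signal in those differences was not tested.

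The remaining lists had 0 calls in limma. Markers of fibroblasts and stellate cells, which are a known source of Adam12, Adam33 and several MMPs, had a median of -0.020 over 8 tested genes, a sum between 34.5 and 143 in normal (79.9 at most without replicates 2 and 3) and between 36.5 and 77.6 in tumor samples, and differences of -0.0032 for Col1a2 and -0.20 for Col3a1. Epithelial markers had a median of -0.47 (Krt18 at -0.40, Tff2 at -2.11), endothelial markers of -0.80 (Egfl7 at -1.58, Kdr at -0.57) and islet markers of -2.10 (Ins2 at -3.12, Ins1 at -3.24). Dendritic cell markers had a median of 0.27 (Siglech at -0.24, Cd209a at 0.27), B and plasma cell markers of -0.11 (Cd22 at -0.092, Cd79b at -0.46) and T and NK cell markers of -0.29 (Cd4 at -0.11, Nkg7 at -0.29). In the macrophage list the brightest genes, Itgam and C1qb, differed by -0.46 and -0.13.

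**Figure D4:**
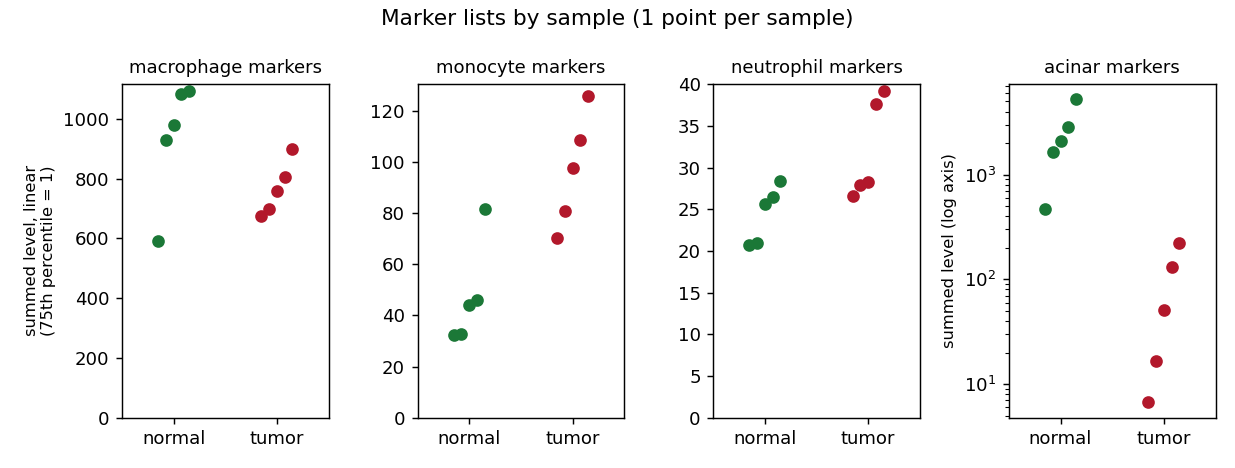
Summed linear level of 4 marker lists in each sample, relative to the 75th percentile of the array, with normal samples in green and tumor samples in red, ordered by value and a log axis for the acinar panel. Acinar sums are lower in every tumor sample, monocyte and neutrophil sums are mostly higher, and macrophage sums overlap.

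Signal differed between arrays, with 39.3% to 58.7% of probes well above background and a 75th percentile between 398 and 1547 that was lowest for normal replicates 2 and 3. Arrays of 1 sample name correlated at 0.993 and 0.996 across probes above background on all arrays, other arrays of a group at 0.892 to 0.967, and arrays of different groups at 0.886 to 0.957.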

How the data were processed

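Sorted macrophages went into lysis buffer, and cDNA was amplified by a whole-transcriptome kit and labelled with Cy5, per the labels' protocols, so folds are folds of amplified signal. Intensity values per spot were deposited by the authors from Agilent Feature Extraction 11.5.1.1 (red channel), per the file headers, with background and spatial trends already subtracted in the processed signal. A log2 table by probe, also from the authors, equalled quantile-normalized processed signals (median absolute difference 0.00231, lowest correlation 0.9999, column median 7.08), so scale is settled and genes are not centred.

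Of 44397 spots 43020 were not controls. Spots with outlier flags (0.401%) were left out, 0 were saturated, log2 processed signals were averaged per probe (39429), and every array was centred on its 75th percentile. Each gene, by the name in the files, was its probe with the highest mean processed signal (25145 genes; 5008 probes had no gene name). Of the members' probe accessions, 35 of 38 matched the same symbol in a GRCm38.p6 gene table and 3 were not matched. Tested genes (15052) had that probe well above background on 3 of 6 arrays of either group. Probe positions are those of the files on mm9, which give no exon or intron. Arrays lay on 3 slides, each with its own scan and 2 arrays of either group. Replicate numbers follow the order of deposit and pair nothing.

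Tumor was set against normal by limma 3.58.1 (R 4.3.3) through lmFit and eBayes, two-sided, with Benjamini-Hochberg adjustment across the tested genes (threshold 0.05; 95% intervals from the moderated fit; median 10.9 degrees of freedom). The fit was tested on simulated data of 15052 genes for this comparison: of genes changed by 1, 2, 3 and 4 log2 units, 10%, 46%, 76% and 92% were called. The members and lists were chosen with earlier results of these data known. Named are all members, with values per sample for those past the threshold or with groups that do not overlap, every called gene of a pathway list or else the 2 with the smallest p, and the 2 genes with the highest signal of each cell list; other genes with values beside them were chosen after their values were seen. A result of the substrate and monocyte lists is not reported here. Of 248 list entries 243 were found by name, 2 by synonym and 3 were not matched. Alternatives covered background correction, scaling, the log2 table, the filter, shared sample names, slides, which probe stands for a gene, outlier flags, the modelling of variance, the threshold and leaving out each sample.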

Additional observations from a re-analysis of the deposited data

Results flagged for a closer look

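In 4 of 76 groups of 5 samples (38 genes in 2 groups), 1 sample lay far from the other 4 by Dixon's test at 95%, which chance flags in about 1 of 20 groups. Mmp11 in tumor replicate 3 was at -4.76, with the nearest tumor sample at -1.72. Adam9 in the sample of normal replicates 2 and 3 was at -3.28, with the nearest normal sample at -1.34. Adam19 in the same sample was at -0.73, with the nearest at 0.66. Timp2 in tumor replicate 5 was at 5.03, with the nearest at 5.67.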

How the results depend on the processing

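Mmp25 passed in 23 of 26 alternatives, Adam33 in 8, Adam8 in 4, Mmp9 in 2, and Mmp12 and Mmp8 in 1 each. Against 132 genes, 48 of them higher in tumor, and 1 member in the fit reported, limma passed 218 genes (95 higher) and 5 members with normexp, 441 (213 higher) and 4 with 12 arrays as separate samples, 235 (114 higher) and 3 with trend and robust variance, 260 (119 higher) and 3 at an adjusted p under 0.1, and 0 and 0 on slide 1, slide 2 or slide 3 alone. Members passed were 2 with the filter at 6 of 6 arrays, 2 blocked on slide and name and 2 with the mean of all probes. Leaving out each sample gave 62 to 210 genes and 1 to 2 members. Genes passed were 83, 62 and 210 when normal replicates 1, 5 and 6 were left out, and 77 and 73 for tumor replicates 1 and 2. The other member was Adam33 without normal replicates 2 and 3, and Mmp8 without tumor replicates 4 and 6. Causes were not tested, except that fewer arrays enter the single slides. No paired analysis was possible because the labels give no replicate numbers that groups share.

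None of the differences that turned sign had passed. With normexp they were -0.096 for Mmp2, -0.33 for Mmp3 and 0.068 for Adam15, and Adam15 was 0.030 with quantile scaling and 0.0275 in the authors' log2 table. With 12 arrays as separate samples they were -0.54 for Mmp2, -0.016 for Mmp3, -0.24 for Mmp11, 0.15 for Mmp27, 0.013 for Adam15 and 0.22 for Timp4, which was 0.019 blocked on slide and name. On slide 1 they were -0.24 for Mmp2, -1.19 for Mmp11, 0.030 for Adam19, -0.023 for Timp1 and 0.59 for Timp4. On slide 2 they were -0.75 for Mmp2, -1.22 for Mmp3, -1.40 for Mmp11, -0.30 for Mmp14, 0.64 for Mmp27, 0.18 for Adam15, 0.84 for Adamts2, -0.21 for Timp1 and 0.42 for Timp4. On slide 3 they were -0.65 for Mmp2, -0.15 for Mmp23, 0.10 for Adamts2, 0.83 for Adamts4, 1.06 for Adamts12 and 0.42 for Timp3. Leaving out each sample, ranges that cross 0 were -0.20 to 0.77 for Mmp2, -0.023 to 0.79 for Mmp3, -0.34 to 0.84 for Mmp11, -0.26 to 0.19 for Mmp27, -0.11 to 0.035 for Adam15, -0.69 to 0.18 for Adamts4, -0.59 to 0.23 for Adamts12 and -0.26 to 0.12 for Timp4. Without a filter on dim probes the median of all genes was -0.26.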
